A study of Homo sapiens with 3 samples.

Results

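The 7 loci described here encode enzymes of glycolysis, namely ALDOA, TPI1, GAPDH, PGK1, ENO1, PKM and LDHA. Their members are the regions listed in a chromatin immunoprecipitation sequencing (ChIP-seq) study that overlapped one of these loci, taken with 5 kb on either side, by at least 1 bp. Of 17232 regions in the 3 lists of the study, 22 did so. ChIP-seq reads the DNA recovered with an antibody and so locates a protein along the chromosomes. The cells were DU145, an established line from a brain metastasis of prostate adenocarcinoma. One antibody target was ZMYND11 (BS69), in parental cells and in cells with a knockout of ETS1, and the other was ETS2, in ETS1-knockout cells. The parental cells carry no knockout according to the sample titles. Each of these groups was 1 library, with no input library analysed here, and whether the knockout line is a clone is not given in the sources used here. The lists held 536, 15676 and 1020 regions in that order, with widths of at most 501 bp.

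Glycolysis splits glucose into pyruvate and yields ATP and NADH, and lactate dehydrogenase then turns pyruvate into lactate and restores NAD+. Its enzymes are made in large amounts in most dividing cells, and several of their genes are known targets of the hypoxia factor HIF1. ZMYND11 is a chromatin reader that binds histone H3.3 trimethylated at lysine 36, a mark of transcribed gene bodies, and can act as a co-repressor. ETS1 and ETS2 belong to the ETS transcription factors, which bind GGAA core motifs, and both respond to Ras signalling. The 22 regions were selected on their listed positions, and the loci were picked with the lists in view, so every value below is a description of these libraries and carries no test. A region that is not listed does not show that the protein was absent, since depth and calling threshold are not given.

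ZMYND11 was listed at 6 of the 7 loci in ETS1-knockout cells and at 2 of the 7 in parental cells, and ETS2 was listed at 4 of the 7 in knockout cells. When the genome was divided into tiles of 27.4 kb, the median length of the locus windows, 8.16% of tiles held a knockout ZMYND11 region, 0.476% a parental ZMYND11 region and 0.782% an ETS2 region. The tiles include sequence with few genes, so they are a wide background and not one of expressed genes. The 16 knockout ZMYND11 regions gave 0.879 regions per 10 kb of window, against 0.0518 over all tiles. For the 2 parental regions the density was 0.110 against 0.00177 per 10 kb, and for the 4 ETS2 regions it was 0.220 against 0.00336. The knockout list is much the longest. Its density at the loci stood less far above its own background (17.0-fold) than those of parental ZMYND11 (62.0-fold) and ETS2 (65.4-fold). The last 2 ratios rest on 2 and 4 regions. In the first 536 regions of each list, 5 knockout ZMYND11, 2 parental ZMYND11 and 1 ETS2 region fell in the loci. The order of the ratios thus depends on how much of each list is used. Of the 16 knockout ZMYND11 regions, 8 were at PKM alone.

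**Figure D1:**
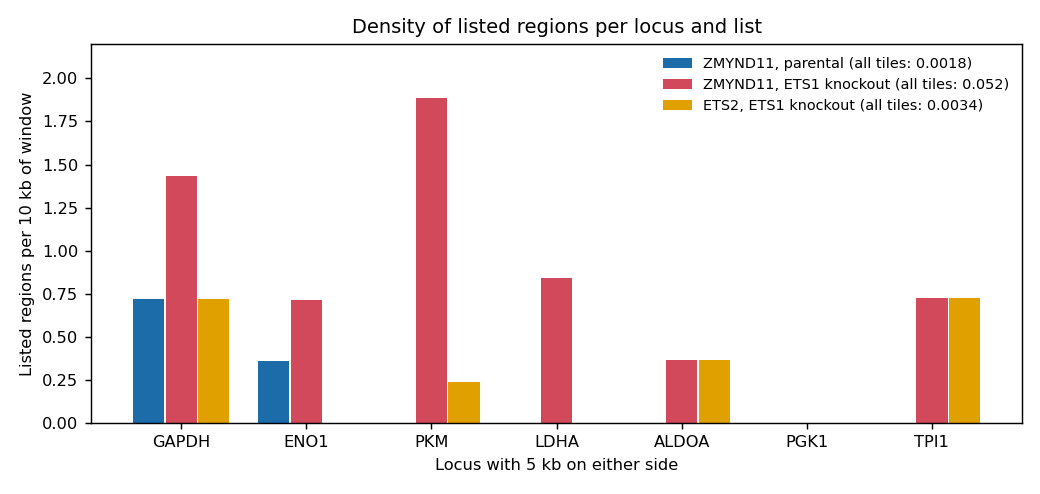
Listed regions per 10 kb of window (y axis) for each of the 7 loci with 5 kb on either side (x axis), with 1 bar per list and the density over all genome tiles in the legend. PKM has the highest bar, 1.89 knockout ZMYND11 regions per 10 kb, GAPDH has bars in every list, and PGK1 has none.

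Upper glycolysis begins here with aldolase A (ALDOA), which cleaves fructose 1,6-bisphosphate into a pair of triose phosphates. Its locus was taken as chromosome 16, 30064411 to 30081778 on hg19, plus strand. The only knockout ZMYND11 region in its window was at 30085106 to 30085595, at place 358 of 15676, with its near edge 3.33 kb past the end of the locus. The only ETS2 region, 30084529 to 30085028 at place 791 of 1020, lay on the same side and was separated from the ZMYND11 region by 78 bp. No region was listed between the start and the end of ALDOA, or before its start. The next gene past the end, on the same strand, is PPP4C, and another ETS2 region at 30086790 to 30087287 missed the window by 12 bp. The length of 17.4 kb used for ALDOA exceeds the 6.14 kb of the current RefSeq gene on GRCh38, so what counts as its start depends on the annotation. The nearest parental ZMYND11 region was 0.487 Mb away.

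Triose phosphate isomerase (TPI1) interconverts the triose phosphates that aldolase releases. At TPI1, chromosome 12, 6976283 to 6980110, plus strand, the knockout ZMYND11 region was at 6980554 to 6981053, at place 157, and began 444 bp past the end. An ETS2 region at 6981449 to 6981945, place 583, began 1.34 kb past the end, and 396 bp separated it from the ZMYND11 region. Both thus lay past the end and neither touched the gene. In the RefSeq gene table SPSB2, on the opposite strand, overlaps TPI1 and follows it, so a position past the end of TPI1 may also lie in SPSB2. The hg19 limits of SPSB2 were not used here.

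Glyceraldehyde 3-phosphate dehydrogenase (GAPDH), which makes the NADH of the pathway, was the only locus with a region in every list. Its locus is chromosome 12, 6643585 to 6647537, plus strand. The parental ZMYND11 region, 6646759 to 6647249, stood at place 4 of 536, inside the gene, with its midpoint 533 bp before the end and 86.5% of the way along it. In knockout cells the ZMYND11 region at place 119 was at 6647849 to 6648348, and its midpoint lay 561.5 bp past the end. The parental and the knockout region did not overlap, and 600 bp separated them across the end of the gene. The ETS2 region, 6647875 to 6648330 at place 893, lay wholly within the knockout ZMYND11 region, with midpoints 4 bp apart. A further knockout ZMYND11 region, 6650703 to 6651192, began 3.17 kb past the end at place 9779, much later in the list. IFFO1 is the next protein-coding gene past GAPDH. Its hg19 limits were not used, so whether the positions past the end belong to GAPDH alone was not determined.

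Phosphoglycerate kinase 1 (PGK1), which makes the first ATP of the pathway, was the only locus with no region in any of the 3 lists. Its locus was taken as chromosome X, 77359666 to 77382324, plus strand. The nearest knockout ZMYND11 region was 77389804 to 77390269, 7.48 kb past the end at place 6129, and another at 77392233 to 77392715 stood at place 2888, 9.91 kb past the end. The nearest parental ZMYND11 region was 23.2 Mb away and the nearest ETS2 region 54.5 Mb away.

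Enolase 1 (ENO1) makes phosphoenolpyruvate and is also known in an alternative form that binds the MYC promoter. Its locus was taken as chromosome 1, 8921059 to 8939151, minus strand. The parental ZMYND11 region, 8926240 to 8926741 at place 37, was in the gene body with its midpoint 70.0% of the way along, 5.43 kb before the end. The first knockout ZMYND11 region, 8919008 to 8919509, stood at place 110 and lay past the end, 1.55 kb from the gene. The other, 8941254 to 8941753 at place 10591, lay 2.10 kb before the start. RERE is the next protein-coding gene past ENO1, and CA6, on the opposite strand, is the one before its start. The hg19 limits of RERE and CA6 were not used, so whether these knockout positions belong to ENO1 alone was not determined. Midpoints of the parental region and the nearest knockout region were 7.23 kb apart, so at ENO1 the parental position in the body had no knockout region near it. No ETS2 region was listed within 0.854 Mb of ENO1.

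Pyruvate kinase M (PKM) makes pyruvate and ATP in the last step of glycolysis proper, and its M2 splice form is common in tumour cells. Its locus, chromosome 15, 72491370 to 72523727 on the minus strand, is the longest of the 7 at 32.4 kb. The knockout ZMYND11 list held 8 regions there, with 5 in the body, 1 near the start, 1 near the end and 1 before the start. In the direction of transcription they began with 72527445 to 72527944 (place 4191), whose midpoint was 3.97 kb before the start, and 72522812 to 72523313 (place 1239), whose midpoint was 664.5 bp past the start. The body regions had their midpoints 20.7, 27.3, 33.3, 75.7 and 87.1% of the way along, at places 7084, 6568, 13240, 3398 and 8214. The last, 72490268 to 72490768, was past the end with its midpoint 852 bp beyond it and had the earliest place of the 8, 267. Neighbouring midpoints were 1.94 to 13.7 kb apart, with a median of 4.63 kb, and the widest gap lay in the body. The only ETS2 region, 72490159 to 72490659 at place 153, overlapped the ZMYND11 region past the end by 391 bp. GRAMD2A is the next gene past PKM, on the same strand. The nearest parental ZMYND11 region was 2.57 Mb from PKM.

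Lactate dehydrogenase A (LDHA) reduces pyruvate to lactate. At LDHA, chromosome 11, 18415936 to 18429765, plus strand, the knockout ZMYND11 list held a region near each end of the gene. The one at 18416613 to 18417111, place 4270, had its midpoint 926 bp past the start. The other, 18430265 to 18430765 at place 719, began 500 bp past the end, and the next gene there is LDHC on the same strand. Parental ZMYND11 was 4.74 Mb away at its nearest and ETS2 8.94 Mb. LDHA is thus, with ENO1, a locus that held knockout ZMYND11 without ETS2.

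LDHA and PKM were the only loci with a region near the start in any list. The 250 bases before their RefSeq starts on GRCh38.p14 are therefore printed as promoter sequence. Measured from the hg19 locus limits used here, the regions near the starts lie past them. No coordinates were converted between builds, so whether these regions cover the printed stretches was not checked. The LDHA stretch is chr11:18394313-18394562 on the plus strand and the PKM stretch chr15:72231191-72231440 on the minus strand, both 5′ to 3′. Capitals mark GGAA, the core of ETS motifs, and ACGTG, the core of the hypoxia response element, on either strand.
LDHA: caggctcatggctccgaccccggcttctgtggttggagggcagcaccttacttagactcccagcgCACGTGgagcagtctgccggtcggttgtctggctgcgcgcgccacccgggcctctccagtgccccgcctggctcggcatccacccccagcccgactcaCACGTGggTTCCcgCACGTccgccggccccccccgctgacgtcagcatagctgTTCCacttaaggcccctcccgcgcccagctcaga
PKM: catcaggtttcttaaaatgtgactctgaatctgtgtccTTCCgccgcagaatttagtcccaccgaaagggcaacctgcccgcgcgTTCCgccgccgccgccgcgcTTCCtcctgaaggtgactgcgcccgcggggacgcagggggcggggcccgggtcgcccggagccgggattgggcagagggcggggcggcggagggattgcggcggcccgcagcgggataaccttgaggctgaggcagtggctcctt
The LDHA stretch held 2 GGAA cores and 5 matches to ACGTG, where a palindromic CACGTG counts on both strands, and the PKM stretch held 3 GGAA cores and no ACGTG. All 7 loci matched an entry of the promoter table, and each held GGAA, which 92.7% of the 35116 promoters in the table also did. ACGTG was found at 4 of the 7 (GAPDH, LDHA, ALDOA and PGK1), against 18.5% of all promoters, and the other hypoxia core, GCGTG, at 2 of the 7 (ENO1 and PGK1), against 32.2%. The SP1 motif GGGCGG was found at 5 of the 7, against 42.6%. Neither the longer ETS motif CCGGAAG (8.52% of all promoters), which contains GGAA, nor the AP-1 motif TGANTCA (6.57%) was found in any of the 7. The 7 stretches were 57.6% (ALDOA) to 72% (ENO1) G or C, and the shares over all promoters were not matched for base content. These are matches of letters on either strand in this window and are not shown to be bound.

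Placed along the direction of transcription, regions of the knockout lists were densest past the ends of the loci. The 5 kb past the end makes up 19.2% of the summed window length, and it held 7 of the 16 knockout ZMYND11 regions, 4 of the 4 ETS2 regions and 0 of the 2 parental ZMYND11 regions, by midpoint. For knockout ZMYND11 this was 2 regions per 10 kb past the end, 0.625 between start and end and 0.571 in the 5 kb before the start. The regions between start and end were all at PKM except 1 at LDHA, so their density mostly describes PKM. Both parental regions lay between start and end, a stretch that makes up 61.6% of the summed window length. With 2 regions, a difference in placement from the knockout lists is not shown. With near defined as a midpoint within 1 kb, 4 knockout ZMYND11 regions were near an end (GAPDH, TPI1, PKM and LDHA) and 2 near a start (PKM and LDHA). For ETS2, 2 regions were near an end (GAPDH and PKM) and none near a start. Past the end also means toward the next gene, which is on the same strand at ALDOA (PPP4C), PKM (GRAMD2A) and LDHA (LDHC). The hg19 limits of neighbouring genes were not used. Whether the regions past an end belong to the glycolysis gene or to its neighbour was therefore not determined. Whether other genes show the same placement was not analysed here, so the pattern is not shown to be particular to glycolysis.

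**Figure D2:**
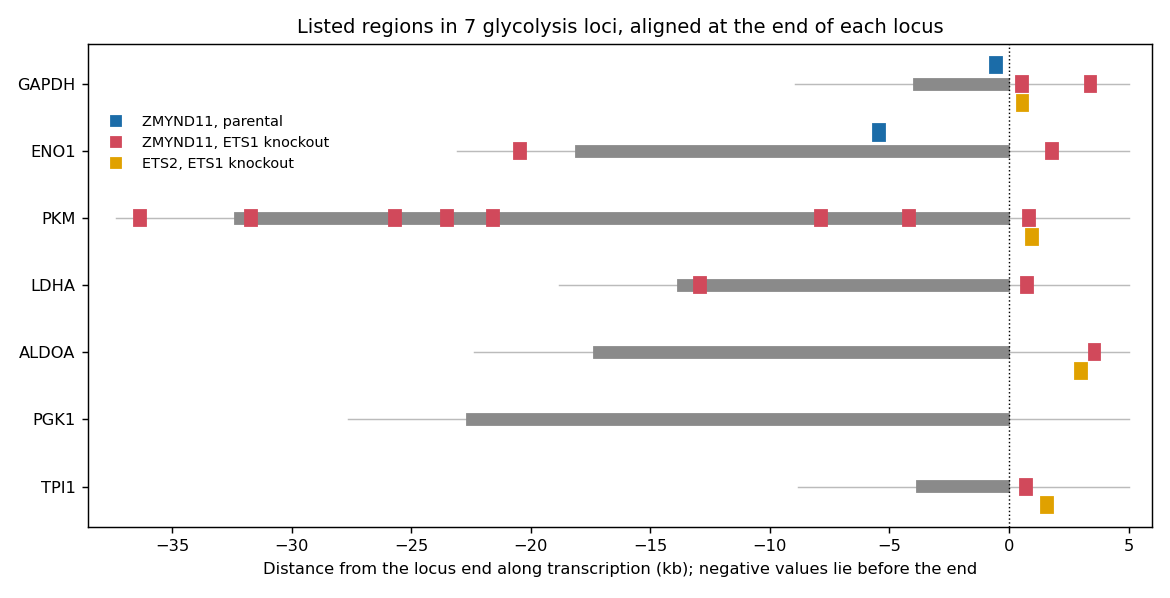
Map of the 7 loci to scale, aligned at their ends (0 on the x axis, in kb along transcription), with grey bars for the loci, thin lines for the 5 kb on either side and coloured boxes for listed regions of the 3 lists. All 4 ETS2 regions and 7 of the 16 knockout ZMYND11 regions lie to the right of the ends, and both parental ZMYND11 regions lie to the left.

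In the knockout ZMYND11 list, the earliest-listed region at each locus with a region lay past the end. At ALDOA, TPI1 and GAPDH every knockout ZMYND11 region of the window was past the end, so the earliest could not lie elsewhere. Only ENO1, PKM and LDHA held regions in other positions to compare. At all 6 loci with a region, the earliest-listed one began 312 bp to 3.33 kb past the end, at places 110 (ENO1), 119 (GAPDH), 157 (TPI1), 267 (PKM), 358 (ALDOA) and 719 (LDHA), which is 0.702 to 4.59% of the list. The 7 knockout regions between start and end stood at places 1239 to 13240, with a median of 41.9% of the list, and the 2 before a start at 4191 and 10591. Of those between start and end, 1 was at LDHA and the others were at PKM, so that median mostly describes PKM. All regions of a list have a median near 50% by construction. The late GAPDH region at 62.4% was the exception among those past an end. What the order of the lists stands for is not stated, so place is not a measure of binding strength. Among the first 536 knockout ZMYND11 regions, the length of the parental list, 5 fell in the loci, 1 each at ALDOA, ENO1, GAPDH, PKM and TPI1, and all 5 were past the end. The parental regions stood at 0.746% (GAPDH) and 6.90% (ENO1) of their list. The ETS2 regions stood at 15% (PKM), 57.2% (TPI1), 77.5% (ALDOA) and 87.5% (GAPDH) of their list. The lists differ in length, so these shares are not compared between lists.

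**Figure D3:**
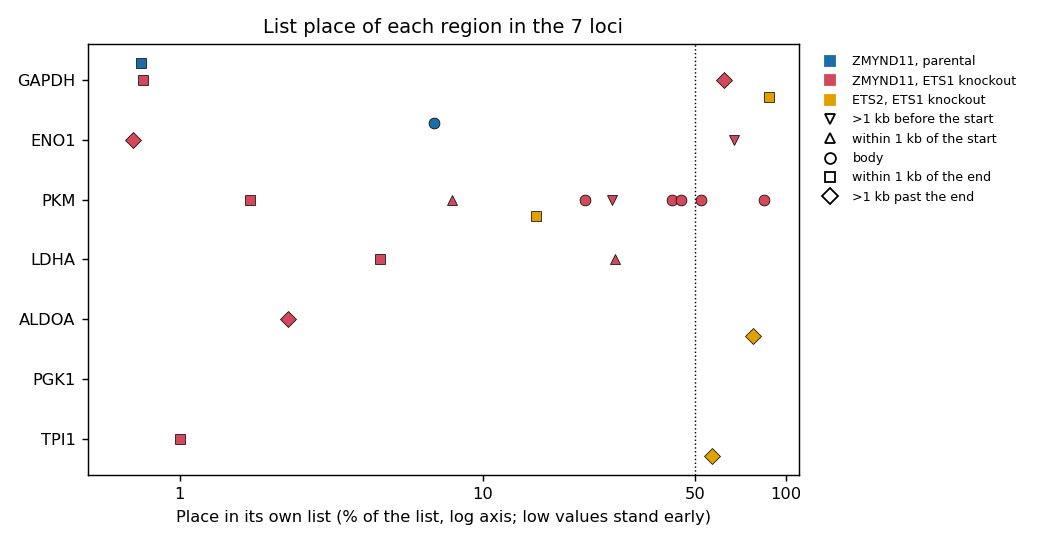
Place of each region as a percentage of its own list (x axis, log scale) for each locus (y axis), with colour for the list, marker shape for the position along the gene and a dotted line at 50%. The earliest knockout ZMYND11 marker at each of 6 loci lies below 5% and is a square or diamond, the shapes for the end and past the end. At ALDOA, TPI1 and GAPDH all knockout ZMYND11 markers have these shapes. Of the 4 ETS2 markers, 3 lie to the right of the dotted line.

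At the loci, all 4 ETS2 regions had a knockout ZMYND11 region within 1 kb, midpoint to midpoint, as did 71.9% of the whole ETS2 list. All 4 loci with ETS2 held knockout ZMYND11, as did 95.7% of all tiles with an ETS2 region. Of the 6 loci with knockout ZMYND11, 4 held ETS2, against 9.18% of all tiles with a knockout ZMYND11 region. Of the 4 ETS2 regions, 2 overlapped a knockout ZMYND11 region (GAPDH and PKM), a share of 50% against 57.1% over the whole ETS2 list. At ALDOA and TPI1 the midpoints were 572 and 893.5 bp apart without overlap. Seen from ZMYND11, 2 of 16 knockout regions (12.5%) overlapped ETS2, against 3.71% of the whole list. Of the 4 ETS2 regions, 0 overlapped a parental ZMYND11 region, against 1.76% of the ETS2 list. Of the 2 parental regions, 0 overlapped a knockout ZMYND11 region, against 10.4% of the parental list. Both parental loci, GAPDH and ENO1, also held a knockout ZMYND11 region elsewhere in the window, as did 38% of all tiles with a parental region. With so few regions the differences from the whole lists were not tested.

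The window of 5 kb decided which regions were counted. Just inside it were a PKM region of knockout ZMYND11 3.72 kb before the start and the ALDOA region 3.33 kb past the end. Just outside were the ALDOA region of ETS2 at 5.01 kb, a GAPDH region of knockout ZMYND11 5.63 kb before the start (place 14100) and a PKM region 5.90 kb before the start (place 6842).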

How the data were processed

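The deposited files are lists of intervals (chromosome, start and end), 1 for each library, without scores or counts. The submitters' processing notes name Bowtie2 2.0.6 and hg19. The sources used here do not give the peak caller, the threshold, a control or the depth, so no detection limit could be derived. Whether starts count from 0 or 1 is not stated, and either reading gave the same member regions.

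The members and lists were chosen with earlier results of these data known. All 7 loci are named with each of their regions. Positions were read from region midpoints along the gene strand of the RefSeq promoter table. Near a start or end means within 1 kb. Overlap between lists required 1 bp. Tiles covered 23 chromosomes (110564 tiles). Gene neighbours come from RefSeq names on GRCh38, and no coordinates were converted. Other glycolysis genes were not analysed here, since no hg19 annotation was used. Alternatives varied the flank, the distance called near, the part of the list used, the overlap rule and the loci included. The placement and tiling steps were tested on simulated data. Python 3.11.15, pandas 2.3.3 and matplotlib 3.10.9 were used.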

Additional observations from a re-analysis of the deposited data

How the results depend on the processing

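Of 71 alternative values, 51 equalled the main value or stayed within 1.5 times of it, and 20 did not. The 51 include values that were 0 in the main setting and stayed 0. Without a flank, knockout ZMYND11 was listed at 2 loci with 7 regions and a median place of 41.9% of the list (24.2% with the flank), and ETS2 at 0 loci with 0 regions, because 9 of the 16 knockout ZMYND11 regions and 4 of the 4 ETS2 regions lie wholly outside the locus limits. With a flank of 1 kb ETS2 kept 2 loci and 2 regions. With a flank of 10 kb knockout ZMYND11 was listed at 7 loci with 20 regions, and ETS2 at 4 loci with 5 regions. In the first 50% of its list, and likewise in its first 536 regions, ETS2 had 1 locus with 1 region, and knockout ZMYND11 had 5 regions in its first 536. Without PKM, an alternative chosen after seeing the data, knockout ZMYND11 had 8 regions with a median place of 3.44%. When near meant 500 bp, 0 regions of any list were near a start or an end, where 1 kb gave 2 knockout ZMYND11 regions near a start and 4, 2 and 1 near an end for knockout ZMYND11, ETS2 and parental ZMYND11. Midpoints within 1 kb paired 4 ETS2 regions with 4 knockout ZMYND11 regions, against 2 by overlap. Parental counts of loci and regions were 2 under every alternative run. The cut to 536 regions and the removal of PKM could not change them, since the parental list has 536 regions and none at PKM. The share of tiles with a region was 0.246 to 0.735% for parental ZMYND11, 5.01 to 11.0% for knockout ZMYND11 and 0.424 to 1.18% for ETS2 with tiles of the shortest and the longest window, also chosen after seeing the data. No paired analysis was possible because each group held 1 library, and for the same reason no replicate could be left out.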

Other observations

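Farther from the loci, at 5 to 20 kb, 10 knockout ZMYND11 regions and 2 ETS2 regions were listed, and no parental ZMYND11 region. The earliest-listed of the 10 was chromosome 12, 6961222 to 6961723, at place 163, 14.6 kb before the start of TPI1, and an ETS2 region at 6961418 to 6961918, place 123, overlapped it. USP5, the gene before TPI1 on the same strand, is a ubiquitin-specific protease, and the region cannot be assigned to either gene without an hg19 annotation. The other 9 knockout ZMYND11 regions stood at places 2888 to 14100, around GAPDH (4), ALDOA (2), PGK1 (2) and PKM (1).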
